A study of Mus musculus with 33 samples.

Results

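Epithelial identity was followed in mouse embryonic stem cells and their differentiated derivatives through 10 genes of the 37991 in the count tables. The rule took them by name. The epithelial members were Cdh1, Epcam, Esrp1, Krt8 and Krt18, and the factors known for driving epithelial to mesenchymal transition (EMT) were Snai1, Zeb1, Zeb2, Twist1 and Twist2. The comparisons ask how loss of a base excision repair enzyme altered this gene set before and during differentiation. Polyadenylated RNA was sequenced in 33 libraries of E14TG2a cells, an established line of embryonic stem cells. The genotypes were control (wild-type cells given the empty vector, clones #1, #4 and #7), Neil1 mutant (clones #7, #9 and #11), Neil2 mutant (clones #1, #11 and #14) and Apex1 mutant (clone #46 alone, sequenced in technical duplicate). Mutants carried a CRISPR/Cas9 deletion of an exon, and every line, controls included, had been transfected with a Cas9 plasmid and selected with puromycin. NEIL1 and NEIL2 are DNA glycosylases that remove oxidised bases, and APEX1 is the endonuclease that cuts abasic sites after them. Each genotype was sampled as undifferentiated mESCs, as embryoid bodies harvested after 8 days in suspension (EBs), and as embryoid bodies given 5 µM all-trans retinoic acid from day 4 (EBs + RA), a regime that favours neural differentiation. The p-values for Apex1 speak only of its single clone.

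An epithelial cell holds to its neighbours through E-cadherin, carries simple keratins and splices its transcripts with ESRP proteins. SNAIL and ZEB zinc finger proteins bind E-box sequences and repress Cdh1 and other epithelial genes, and TWIST proteins are basic helix-loop-helix factors that act beside them. Embryonic stem cells and the epiblast are epithelial, gastrulating and neural crest cells undergo EMT, and neural progenitors exchange E-cadherin for N-cadherin, encoded by Cdh2.

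The E-box bound by SNAIL and ZEB proteins reads CACCTG on either strand. Promoter sequences of 7 of the 9 genes looked for were matched by symbol in RefSeq (build GRCm38.p6). No entry was found for Cdh1 and Esrp1, so their promoters were not examined, and Zeb1 was not looked for. The stretches of 250 bases before the start of Epcam, Krt8 and Krt18 are shown because each held this hexamer. Epcam lies at chr17:87635729-87635978 on the plus strand, Krt8 at chr15:102004343-102004592 on the minus strand and Krt18 at chr15:102027966-102028215 on the plus strand. Capitals mark CACCTG or its reverse complement CAGGTG, and each sequence runs 5′ to 3′ towards the transcription start.
Epcam: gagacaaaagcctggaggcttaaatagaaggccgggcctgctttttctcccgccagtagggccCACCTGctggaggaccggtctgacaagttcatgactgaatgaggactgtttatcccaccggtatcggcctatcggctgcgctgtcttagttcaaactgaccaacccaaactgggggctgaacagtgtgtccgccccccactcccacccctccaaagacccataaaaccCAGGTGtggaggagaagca
Krt8: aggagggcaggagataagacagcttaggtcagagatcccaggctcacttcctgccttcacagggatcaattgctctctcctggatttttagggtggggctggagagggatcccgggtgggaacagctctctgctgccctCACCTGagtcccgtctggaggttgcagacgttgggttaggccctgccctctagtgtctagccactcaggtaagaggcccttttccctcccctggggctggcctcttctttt
Krt18: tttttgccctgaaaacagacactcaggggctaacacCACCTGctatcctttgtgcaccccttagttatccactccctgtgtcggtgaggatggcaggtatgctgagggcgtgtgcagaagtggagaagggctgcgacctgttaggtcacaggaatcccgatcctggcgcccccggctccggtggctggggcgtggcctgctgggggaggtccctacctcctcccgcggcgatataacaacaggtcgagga
The Epcam promoter held 2 matches, 187 and 19 bases before the start. Krt8 had 1 match 111 bases before the start and Krt18 had 1 match 214 bases before it. Of all 32851 promoters of this length, 17.2% held at least 1 match and 2.06% held 2 or more. Snai1 also had 1 match, 126 bases before its start, while the promoter windows of Zeb2, Twist1 and Twist2 had none. A match describes the letters in the window, and binding was not measured here.

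Values are CPM, counts set to a common library size, scaled by the trimmed mean of M values over the 33 libraries. A gene was called changed at an adjusted p below 0.1 with a log2 fold change beyond 0.5 either way, from edgeR's quasi-likelihood test over all genes. Where libraries of a mutant and control do not overlap, this is description only. The share of all genes that separate in this way is not given. Libraries held 21523742 to 48350904 reads on genes, with a median of 26720028. The mESC library of Neil1 clone #11 stood apart, with no count on 345 of 511 X-linked genes that the other mESC libraries expressed. In the libraries labelled as the same clone, all 345 of these genes had counts in EBs and 342 in EBs + RA. Whether this mESC library came from the same cells was not tested, and it was kept in the fits. None of the 10 genes is X-linked, and values with and without that mESC library are given where they bear on a call. Counts per gene include exons outside the CRISPR deletions, so they do not check the genotypes. Neil1 read 2.51 to 31.6 CPM in Neil1-mutant mESCs and 7.67 to 9.83 in control mESCs, Neil2 read 5.49 to 9.54 against 5.77 to 15.1, and Apex1 read 72.0 to 75.4 against 7.69 to 17.9, so the Apex1 gene had more reads in the libraries labelled Apex1 mutant than in control libraries.

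Of the 10 genes, 9 had counts. In NCBIM37, Cdh1 (ENSMUSG00000000303, chr8:109127251-109194146), Epcam (ENSMUSG00000045394, chr17:88035319-88050446) and Esrp1 (ENSMUSG00000040728, chr4:11259080-11313930) lie on 3 chromosomes, while Krt8 (ENSMUSG00000049382, chr15:101827142-101834773) and Krt18 (ENSMUSG00000023043, chr15:101858647-101862457) are neighbours. The EMT factors are Snai1 (ENSMUSG00000042821, chr2:167363695-167368314), Zeb2 (ENSMUSG00000026872, chr2:44839154-44972915), Twist1 (ENSMUSG00000035799, chr12:34642536-34644682) and Twist2 (ENSMUSG00000007805, chr1:93698038-93744605). Zeb1, on chromosome 18 of NCBIM37, was listed at 0 in all 33 libraries. Among 844 protein-coding genes with at least its 9712 exon bases, it was the only gene at 0 throughout, and 99.9% of its 51-base exon windows occur once in the genome. The cause was not tested, and no level of Zeb1 is read from these tables. Krt8 is measured on part of its length, since 45.3% of its exon windows occur once and reads aligning to several places were set aside. For the other 8 genes this share was 98.8% or more. The library kit did not keep strand, and Zeb2 shares 463 of its 15368 exon bases, and Esrp1 127 of 6305, with other annotated genes.

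In control cells, differentiation to EBs brought up the keratins and the EMT factors together, with no detectable change of Cdh1. Of 9 genes tested, 8 rose and none fell, where 18.5% of all genes tested rose and 20.2% fell. By DESeq2 none fell either, and none had an unadjusted p below 0.05 in that direction. Cdh1, which encodes E-cadherin, read 302, 284 and 367 CPM in the 3 control mESC libraries. In control EBs it read 311, 316 and 349.9 CPM, within the same range, with a log2 fold change of 0.00 ± 0.13, adjusted p = 0.99 (2 standard errors either way reached -0.26 and 0.26). Epcam (0.54 ± 0.11, adjusted p = 0.0045) and Esrp1 (0.98 ± 0.11, adjusted p = 0.00016) rose, and the Epcam value dropped under the fold limit without control clone #7 (0.48, adjusted p = 0.00039). The keratin partners Krt8 and Krt18, which form the filaments of simple epithelia from neighbouring genes on chromosome 15, rose 33.7-fold and 24.5-fold. Krt8 went from 23.6, 27.9 and 27.8 CPM in mESCs to 743, 1125 and 868 in EBs (log2 fold change 5.08 ± 0.20, adjusted p = 9.0e-07). Among the EMT factors, Zeb2 rose 6.27-fold, from 2.12, 1.91 and 1.27 to 11.8, 12.9 and 9.42 CPM (2.65 ± 0.26, adjusted p = 8.1e-05). Snai1, an early EMT regulator, rose 4.64-fold (2.22 ± 0.19, adjusted p = 4.1e-05) and Twist1, a mesodermal and neural crest factor, 5.02-fold (2.33 ± 0.41, adjusted p = 0.0020). Twist2 had 5, 2 and 0 counts in control mESCs and 191, 136 and 57 in control EBs, a ratio of pooled scaled counts of 43.9 (95% interval 21.1 to 110.0), where the exact interval covers counting error only. In bulk samples, fewer cells of a type and less RNA per cell cannot be told apart, and this holds for every difference below.

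With retinoic acid, control EBs lost epithelial transcripts and gained Zeb2 and Twist1. Of 9 genes tested, 4 fell and 2 rose, where 20.7% of all genes tested fell and 23.3% rose. Cdh1 dropped to 149.8, 107 and 168 CPM, below every other control library (log2 fold change -1.17 ± 0.16, adjusted p = 0.00037). Epcam, an epithelial adhesion protein, fell 2.01-fold and Esrp1, which directs epithelial splicing, fell 4.55-fold (-2.19 ± 0.10, adjusted p = 1.5e-06). Twist1 rose to 43.1, 54.1 and 53.4 CPM (1.80 ± 0.35, adjusted p = 0.0034) and Zeb2 to 24.5, 25.7 and 20.8 CPM (1.09 ± 0.16, adjusted p = 0.00062), in both cases above all EB libraries. Krt18 (-0.22 ± 0.27, adjusted p = 0.53), Snai1 (0.03 ± 0.22, adjusted p = 0.91) and Twist2 (0.12 ± 0.33, adjusted p = 0.78) did not pass the test. Krt8 was called lower (-0.63 ± 0.19, adjusted p = 0.024), but without control clone #4 its log2 fold change was -0.34 with adjusted p = 0.18. Per kilobase of exon, the levels in control EBs + RA were 348 ± 132 CPM per kb for Krt18 and 320.5 ± 70.5 for Krt8, and ran from 35.8 ± 2.40 for Epcam, 31.1 ± 3.80 for Twist1 and 31.0 ± 6.86 for Cdh1, to 14.0 ± 3.91 for Snai1. Twist2 (3.08 ± 0.512), Esrp1 (2.95 ± 0.160) and Zeb2 (1.54 ± 0.168) were lowest on this scale (SD, n = 3). Twist1 and Cdh1 differed by less than their spread, as did Epcam from Cdh1 and Twist2 from Esrp1, while Epcam stood above Twist1 by more than the SD of either. The keratins are not ranked against each other, since part of the Krt8 exon length cannot be counted.

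**Figure D1:**
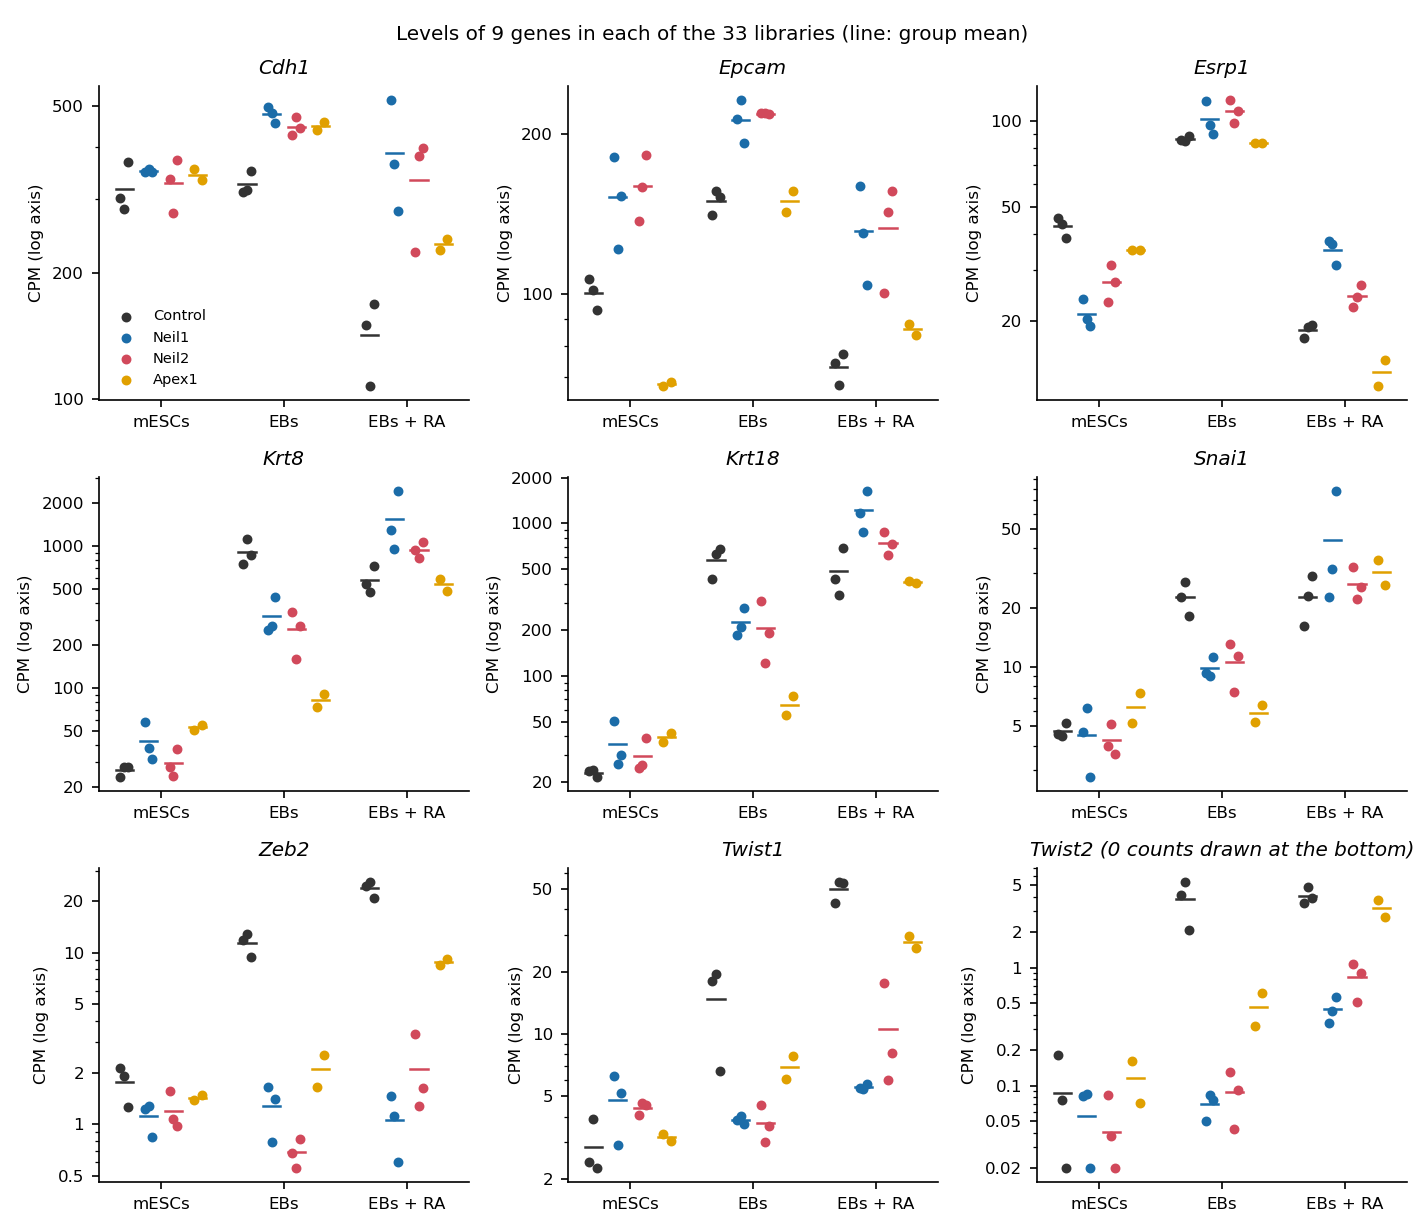
Level of each of the 9 genes with counts in every library, in CPM on a log axis, with mESCs, EBs and EBs + RA from left to right and the genotypes by colour. Points are libraries (3 clones a group, 2 technical duplicates for Apex1) and lines are group means. Cdh1 in control EBs + RA lies below the libraries of every mutant, and Zeb2, Twist1 and Twist2 in Neil1 and Neil2 EBs and EBs + RA lie below the control libraries of the same stage.

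In undifferentiated cells 8 of the 10 genes passed the filter on low counts (Zeb1 and Twist2 did not). In Neil1-mutant mESCs 1 was called, 2 in Neil2 and 3 in Apex1, where 1.82%, 1.83% and 16.9% of all genes tested were called. Esrp1 read 45.8, 43.5 and 39.0 CPM in control mESCs, 23.8, 20.3 and 19.1 in Neil1 and 23.2, 31.3 and 27.3 in Neil2 mESCs. Both mutants lay wholly below the controls, with log2 fold changes of -1.04 ± 0.14, adjusted p = 0.052 for Neil1 and -0.68 ± 0.14, adjusted p = 0.078 for Neil2. Without the mESC library of Neil1 clone #11 the Neil1 value was -0.97 (adjusted p = 0.056), and leaving out either of the other Neil1 clones, or control clone #1 or #4, took the adjusted p past the threshold, up to 0.26. The Neil2 value lost its call without control clone #1 (-0.63, adjusted p = 0.21), control clone #4 (-0.66, adjusted p = 0.25), Neil2 clone #1 (-0.58, adjusted p = 0.15), Neil2 clone #11 (-0.79, adjusted p = 0.16) or Neil2 clone #14 (-0.67, adjusted p = 0.41). Epcam ran from 93.4 to 107 CPM in control, 122 to 181 in Neil1, 137 to 183 in Neil2 and 67.2 to 68.4 in Apex1 mESCs. The call was higher in Neil2 (0.63 ± 0.13, adjusted p = 0.079) and lower in Apex1 (-0.58 ± 0.12, adjusted p = 0.037), while Neil1 did not pass the test (0.57 ± 0.16, adjusted p = 0.16). The Neil2 call for Epcam was lost without control clone #1 (0.67, adjusted p = 0.19), control clone #4 (0.65, adjusted p = 0.25), Neil2 clone #11 (0.63, adjusted p = 0.23) or Neil2 clone #14 (0.54, adjusted p = 0.42). Krt8 (0.99 ± 0.13, adjusted p = 0.018) and Krt18 (0.77 ± 0.12, adjusted p = 0.026) rose in Apex1 mESCs, to 50.7 to 55 and 36.7 to 42.3 CPM, against 23.6 to 27.9 and 21.6 to 24.0 in controls. Neil1 mESCs also lay above these control ranges, at 31.8 to 57.6 CPM for Krt8 and 26.3 to 50.2 for Krt18. In Neil2 mESCs Krt8 overlapped the controls, at 24.1 to 37.3 CPM, and Krt18 read 24.6 to 38.8. By edgeR neither keratin was called in Neil1 or Neil2. DESeq2 called 2 of the 5 epithelial members higher in Neil1 mESCs. None of the Apex1 calls in mESCs held when its technical duplicates were summed into 1 sample, or when either duplicate was left out (adjusted p from 0.23 to 0.42). Cdh1 ranged from 284 to 367 CPM in control mESCs and from 278 to 372 over all mutant mESC libraries, with no call.

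In EBs without retinoic acid the mutants had somewhat more Cdh1 and far less Zeb2 and Twist2 than controls, and less Snai1 and keratin. Of 9 genes tested, 1 rose and 6 fell in Neil1, 1 rose and 6 fell in Neil2, and 5 fell in Apex1. The shares of all genes tested that rose and fell were 10.4% and 13.1% in Neil1, 8.65% and 7.69% in Neil2, and 11.9% and 13.9% in Apex1. The 3 comparisons share their control libraries.

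Among the epithelial members, Cdh1 read 499, 482 and 456 CPM in Neil1, 426, 471 and 443 in Neil2 and 438 and 459 in Apex1 EBs. All 8 mutant libraries lay above the 3 control libraries, by a log2 fold change of 0.55 ± 0.08, adjusted p = 0.00085 in Neil1, 0.46 ± 0.12, adjusted p = 0.040 in Neil2 and 0.48 ± 0.09, adjusted p = 0.0028 in Apex1. The last 2 stayed under the fold limit, and so only Neil1 was called. Cdh1 crossed the limit in Neil2 without control clone #7 (0.52, adjusted p = 0.075), and in Apex1 without control clone #7 (0.54, adjusted p = 0.00037) or Apex1 duplicate 1 (0.52, adjusted p = 0.023). Epcam read 141 to 156 CPM in control EBs, 192 to 231 in Neil1 and 217 to 219 in Neil2. It was called higher in Neil2 (0.54 ± 0.11, adjusted p = 0.015) and lay just under the fold limit in Neil1 (0.49 ± 0.09, adjusted p = 0.0025), while Apex1, at 143 to 156 CPM, overlapped the controls. The Neil2 call was lost without control clone #1 (0.49, adjusted p = 0.10), and Neil1 was called without control clone #4 (0.52, adjusted p = 0.0084), control clone #7 (0.51, adjusted p = 0.0070) or Neil1 clone #11 (0.56, adjusted p = 0.00080). Esrp1 was not called in any mutant, with log2 fold changes of 0.22 ± 0.11, 0.33 ± 0.11 and -0.02 ± 0.09 in Neil1, Neil2 and Apex1. Pluripotency markers were also higher in mutant EBs than in control EBs. The 7 genes summed to 1674 to 1728 CPM in control EBs, 2601 to 3046 in Neil1, 2022 to 3119 in Neil2 and 2821 to 2996 in Apex1, and 7, 6 and 5 were called higher, with Pou5f1 the highest in controls at 408 CPM. In Neil2 the number was 3 without control clone #1 or #4 or without Neil2 clone #11 or #14. Their part in the Cdh1 level was not tested.

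The keratins went the other way. Krt8 read 258, 272 and 436 CPM in Neil1, 345, 161 and 275 in Neil2 and 73.1 and 90.4 in Apex1 EBs, against 743 to 1125 in controls. Every mutant library was below every control library, and the fall was 2.85-fold in Neil1 (-1.51 ± 0.25, adjusted p = 0.0045), 3.51-fold in Neil2 (-1.81 ± 0.27, adjusted p = 0.0044) and 11.0-fold in Apex1 (-3.46 ± 0.22, adjusted p = 6.8e-05). Krt18 fell beside it by 2.6-fold, 2.80-fold and 8.87-fold (adjusted p = 0.0025, 0.020 and 0.00073). Within libraries the log2 ratio of Krt8 to Krt18 counts stayed between 0.35 ± 0.07 in Apex1 and 0.66 ± 0.26 in control EBs (mean ± SD), so the pair moved together. Markers of other keratin-bearing cells moved with them in part. The summed CPM of 6 trophoblast markers was 272 to 306 in control EBs, 48.8 to 56.2 in Neil1, 48.7 to 59.3 in Neil2 and 85.1 to 91.5 in Apex1 EBs. Of the 6 markers, 4, 4 and 5 were called lower, and 1 was called higher in Neil1. Eomes, the highest of them and also a gene of the primitive streak, averaged 106 CPM in controls. That of 10 primitive and visceral endoderm markers was 340.0 to 645 in controls, 528 to 749 in Neil1, 189 to 906 in Neil2 and 83.2 to 103 in Apex1, where 9 of 10 were called lower. Cubn was the highest of these in controls, at 139 CPM. The part of these cells in the keratin result was not tested.

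All 4 EMT factors with counts fell in Neil1 and Neil2, and 3 of them in Apex1. Zeb2 read 1.65, 0.793 and 1.41 CPM in Neil1, 0.684, 0.555 and 0.821 in Neil2 and 1.65 and 2.53 in Apex1 EBs, against 9.42 to 12.9 in controls. Neil1 and Neil2 EBs thus had Zeb2 at or under 1.65 CPM, in the range of the mESC libraries or below it, and the fall against control EBs was 8.94-fold in Neil1 (-3.16 ± 0.27, adjusted p = 1.8e-05), 16.5-fold in Neil2 (-4.04 ± 0.26, adjusted p = 0.00010) and 5.34-fold in Apex1 (-2.42 ± 0.24, adjusted p = 6.8e-05). Twist2 had 1, 2 and 2 counts in the Neil1 EB libraries, 4, 1 and 2 in Neil2 and 8 and 16 in Apex1. The pooled level in control EBs was higher than in Neil1 by a ratio of 54.5 (95% interval 23.1 to 169), than in Neil2 by 42.1 (95% interval 20.2 to 105) and than in Apex1 by 8.27 (95% interval 5.48 to 13.1), and all 3 were called (adjusted p = 2.6e-05, 0.00077 and 0.0013). Twist1 read 18, 19.6 and 6.66 CPM in control EBs, where clone #7 was the low one, 3.85, 4.01 and 3.68 in Neil1 and 4.53, 3.03 and 3.6 in Neil2. It fell 3.85-fold in Neil1 (-1.94 ± 0.36, adjusted p = 0.0046) and 3.94-fold in Neil2 (-1.98 ± 0.39, adjusted p = 0.013), while Apex1, at 6.05 and 7.83 CPM, overlapped the controls and did not pass the test (-1.07 ± 0.50, adjusted p = 0.18), though it was called without control clone #7 (-1.41, adjusted p = 3.9e-05). Snai1 fell as well, from 22.5, 27.1 and 18.2 CPM in controls to 9.36, 9.02 and 11.2 in Neil1 (-1.20 ± 0.17, adjusted p = 0.00047), 13.1, 7.51 and 11.3 in Neil2 (-1.09 ± 0.24, adjusted p = 0.019) and 5.24 and 6.43 in Apex1 (-1.93 ± 0.20, adjusted p = 7.3e-05). Beside these, the 5 streak and early mesoderm markers summed to 142 to 236 CPM in control EBs, 7.33 to 10.8 in Neil1, 6.93 to 7.71 in Neil2 and 49.2 to 64.2 in Apex1, and 5, 4 and 4 of them were called lower. The highest in controls was Mixl1 at 92.9 CPM. Whether fewer mesodermal cells lie behind the EMT factor counts was not tested.

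**Figure D2:**
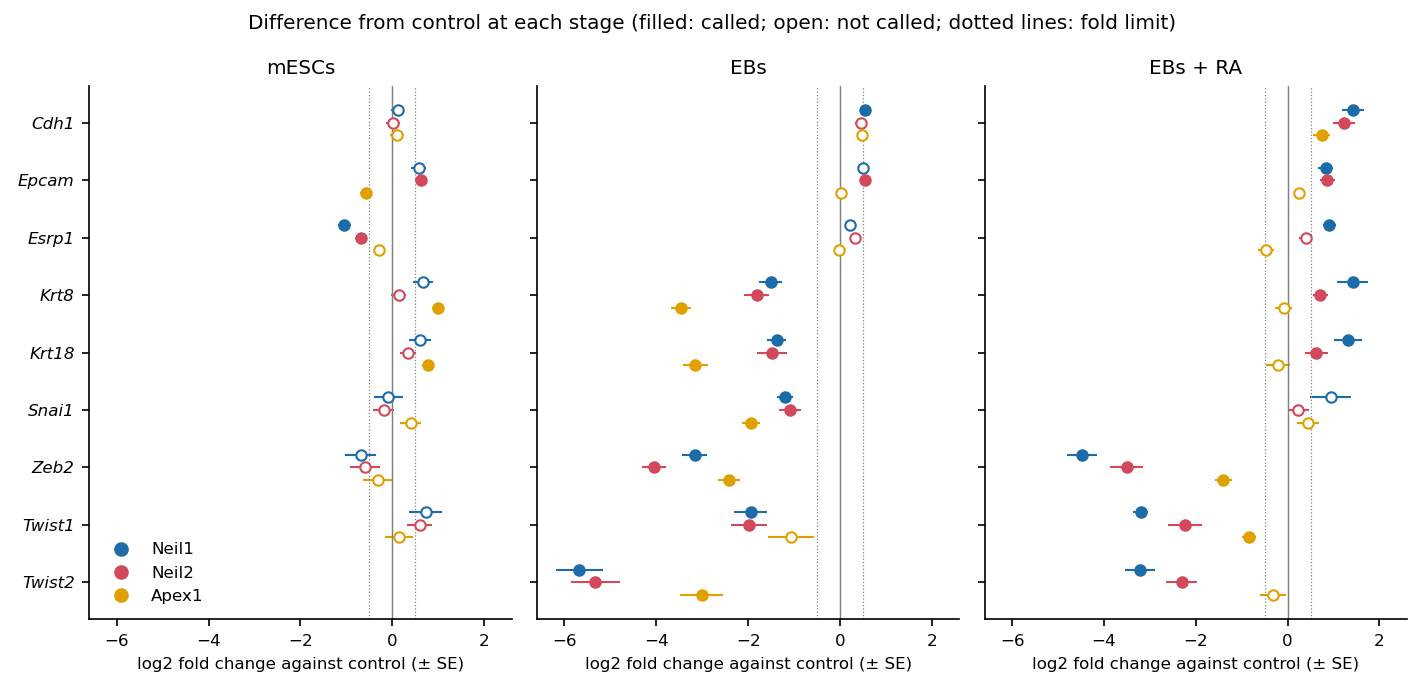
Log2 fold change of each gene against control at the same stage, with its standard error, in mESCs, EBs and EBs + RA. Filled points were called and open points were not, and dotted lines mark the fold limit of 0.5. The keratins lie left of 0 in EBs and right of 0 in EBs + RA for Neil1 and Neil2, while Zeb2, Twist1 and Twist2 lie left of 0 at both stages.

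With retinoic acid, Neil1 and Neil2 EBs had more of most epithelial members than control EBs + RA and little Zeb2 and Twist. Of 9 genes tested, 5 rose and 3 fell in Neil1 and 4 rose and 3 fell in Neil2, where 21.2% and 19.9% of all genes tested rose and fell in Neil1 and 18.3% and 16.6% in Neil2. In Apex1, 1 rose and 2 fell, where 13.9% and 10.9% did.

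Cdh1 read 516, 364 and 281 CPM in Neil1, 224, 380.1 and 398 in Neil2 and 227 and 240.4 in Apex1 EBs + RA. Every mutant library was above the highest control library, 168 CPM, although Neil1 and Neil2 clones spread widely. Cdh1 was 2.69-fold higher in Neil1 (1.43 ± 0.25, adjusted p = 0.0039), 2.35-fold higher in Neil2 (1.23 ± 0.24, adjusted p = 0.0062) and 1.67-fold higher in Apex1 (0.74 ± 0.18, adjusted p = 0.024). The Apex1 call did not hold with its duplicates summed (adjusted p = 0.15), nor without Apex1 duplicate 1 (0.78, adjusted p = 0.15) or Apex1 duplicate 2 (0.70, adjusted p = 0.14). Epcam rose from 67.6 to 77.1 CPM in controls to 104 to 159.8 in Neil1 (0.82 ± 0.17, adjusted p = 0.0075) and 101 to 156 in Neil2 (0.86 ± 0.16, adjusted p = 0.0054), without overlap. In Apex1 it read 83.7 to 88.1 CPM and was not called (0.25 ± 0.12, adjusted p = 0.18). Esrp1 rose in Neil1, to 37.9, 37.0 and 31.2 CPM against 17.4, 19.0 and 19.3 in controls (0.91 ± 0.15, adjusted p = 0.0028). In Neil2 it also lay above the controls but under the fold limit (0.39 ± 0.13, adjusted p = 0.055), and in Apex1 it lay below them, again under the limit (-0.48 ± 0.17, adjusted p = 0.084). Neil1 EBs + RA averaged 35.4 ± 3.64 CPM of Esrp1 and Neil1 EBs 101 ± 14.2 (SD, n = 3), so Esrp1 was lower with retinoic acid in the mutant too.

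The keratins, low in Neil1 and Neil2 EBs, were high in their EBs + RA. Krt8 read 537, 477 and 721 CPM in controls, 1298, 960.0 and 2431 in Neil1, 943, 825 and 1066 in Neil2 and 589.9 and 486 in Apex1. Neil1 and Neil2 lay above the controls without overlap (1.42 ± 0.33, adjusted p = 0.014 and 0.71 ± 0.17, adjusted p = 0.014), and Apex1 lay among them (-0.08 ± 0.19, adjusted p = 0.79). Krt18 rose 2.49-fold in Neil1 (1.32 ± 0.30, adjusted p = 0.012). In Neil2 its 1.54-fold rise (0.62 ± 0.25, adjusted p = 0.092) overlapped the controls and lost its call without control clone #1 (0.54, adjusted p = 0.26), control clone #4 (0.41, adjusted p = 0.25), Neil2 clone #1 (0.47, adjusted p = 0.21) or Neil2 clone #14 (0.64, adjusted p = 0.16). The library of Neil1 clone #11 was highest in both keratins and in Snai1, at 77.8 CPM against 22.6 and 31.6 in the other Neil1 clones. It was also high in the summed markers of trophoblast (223 CPM, other Neil1 clones 74.5 and 56.0), endothelium (138 against 35.3 and 26.8) and surface ectoderm (23.5 against 5.16 and 3.50), and in the 36 mesenchymal genes (6707 against 2266 and 2700, controls 3051 to 4286). Without it Krt8 was 0.93 (adjusted p = 0.0089) and Krt18 1.05 (adjusted p = 0.019), and 8 of 9 genes were still called. The 6 trophoblast markers summed to 46.9 to 57.4 CPM in controls, 56.0 to 223 in Neil1 and 59.7 to 84.0 in Neil2. Of them 4 were called higher in Neil1 and 3 in Neil2, and none lower, where 21.2% and 18.3% of all genes rose. In Apex1 they summed to 73.8 to 78.8 CPM, with 2 called higher and 2 lower. Gata3 was the highest in controls, at 30.6 CPM. Markers of primitive and visceral endoderm moved with the keratins in Neil1, summing to 694 to 1467 CPM against 187 to 648 in controls, with 7 of 10 called higher and Cubn highest at 419.9 CPM. In Neil2 they summed to 229.6 to 767 CPM, with 1 called higher. The number was 4 in Neil1 without control clone #1, and in Neil2 it was 0 without control clone #1, 6 without control clone #7 and 2 without Neil2 clone #11. The part of trophoblast and endoderm cells in the keratin levels was not tested.

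Among the EMT factors, Zeb2 read 24.5, 25.7 and 20.8 CPM in control EBs + RA, 1.46, 1.12 and 0.601 in Neil1, 3.37, 1.27 and 1.64 in Neil2 and 8.50 and 9.21 in Apex1. Every mutant library lay below the controls, by 22.4-fold in Neil1 (-4.48 ± 0.32, adjusted p = 0.00011), 11.3-fold in Neil2 (-3.50 ± 0.36, adjusted p = 0.00056) and 2.64-fold in Apex1 (-1.40 ± 0.18, adjusted p = 0.0022). Twist1 read 5.50, 5.41 and 5.76 CPM in Neil1, 17.7, 6.00 and 8.14 in Neil2 and 29.6 and 25.9 in Apex1, against 43.1 to 54.1 in controls. It fell 9.16-fold in Neil1 (-3.20 ± 0.16, adjusted p = 4.9e-05), 4.71-fold in Neil2 (-2.24 ± 0.37, adjusted p = 0.0035) and 1.79-fold in Apex1 (-0.84 ± 0.16, adjusted p = 0.0091). Twist2 had 110, 132 and 118 counts in controls, 11, 12 and 14 in Neil1 and 29, 16 and 26 in Neil2, a fall of 9.32-fold (-3.22 ± 0.33, adjusted p = 0.00043) and 4.94-fold (-2.31 ± 0.34, adjusted p = 0.0021), while Apex1, with 89 and 79 counts, overlapped the controls in CPM (-0.32 ± 0.28, adjusted p = 0.45). Snai1 was the exception. It read 16.2 to 28.9 CPM in controls, 22.6 to 77.8 in Neil1, 22 to 32.1 in Neil2 and 26.0 to 34.7 in Apex1, and no mutant passed edgeR's test (0.94 ± 0.44, adjusted p = 0.13 in Neil1, 0.23 ± 0.23, adjusted p = 0.48 in Neil2, 0.44 ± 0.24, adjusted p = 0.23 in Apex1). It was called higher in Neil1 by DESeq2 (0.97 ± 0.43, adjusted p = 0.058) and by edgeR with all genotypes in 1 fit (0.93 ± 0.38, adjusted p = 0.069). In Neil1, same-numbered libraries were of different clones, and their deviations correlated weakly (r = 0.18, 0.21 and 0.14). There a fit with the replicate number as a block called Snai1 higher (0.77 ± 0.23, adjusted p = 0.039), and without clone #11 its log2 fold change was 0.23 (adjusted p = 0.50). It was called in Neil1 without Neil1 clone #7 (1.26, adjusted p = 0.046), and in Apex1 without control clone #7 (0.64, adjusted p = 0.026). Neural markers fell over the same libraries. All 4 (Pax6, Nes, Tubb3, Pou3f2) were called lower in each mutant, their sum was 228 to 392 CPM in controls, 34.8 to 48.3 in Neil1, 35 to 45.3 in Neil2 and 62.1 to 68.8 in Apex1, and Nes was the highest in controls at 132 CPM. The 7 pluripotency markers summed to 161 to 183 CPM in controls and to 288 to 409, 214 to 607 and 626 to 766 in Neil1, Neil2 and Apex1, still under every EB library without retinoic acid. Stem cells also carry Cdh1, and their part in its level was not tested.

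Whether the mutant effect differed between stages was tested by interaction terms. Between mESCs and EBs, 7 of 9 genes were called in Neil1, 5 in Neil2 and 6 in Apex1, where 10.1%, 10.2% and 26.6% of all genes tested were. The change of Zeb2 from mESCs to EBs was lower than in controls, with a difference of -2.45 ± 0.44, adjusted p = 0.0045 in Neil1, -3.47 ± 0.41, adjusted p = 0.00038 in Neil2 and -2.14 ± 0.41, adjusted p = 0.0046 in Apex1 on the log2 scale. The change of Krt8 was lower as well, with differences of -2.16 ± 0.34, -1.97 ± 0.35 and -4.49 ± 0.26. Esrp1, low in Neil1 and Neil2 mESCs, had a higher change than in controls in Neil1 (1.28 ± 0.18, adjusted p = 0.0010) and Neil2 (0.99 ± 0.17, adjusted p = 0.0051). With the clone as a block, the Neil1 call for Snai1 (-1.10 ± 0.35, adjusted p = 0.084) was lost (adjusted p = 0.21) and Twist1 in Apex1 (-1.25 ± 0.56, adjusted p = 0.14) was called (adjusted p = 0.057). Deviations of same-clone mESC and EB libraries correlated at r from -0.41 to 0.17, so this block rests on the labels.

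Between EBs and EBs + RA, 8 of 9 genes were called in Neil1, 4 in Neil2 and 5 in Apex1, where 29.6%, 15.0% and 15.7% of all genes tested were. The keratins were called lower than control in EBs of all 3 mutants and in none of them with retinoic acid. Krt8 changed with retinoic acid by 2.95 ± 0.47, adjusted p = 0.0015 more than in controls in Neil1, 2.50 ± 0.35, adjusted p = 0.00065 in Neil2 and 3.36 ± 0.30, adjusted p = 0.00013 in Apex1, and Krt18 by 2.72 ± 0.41, 2.09 ± 0.45 and 2.92 ± 0.42. Snai1 shared this pattern, with 2.16 ± 0.55, adjusted p = 0.016 in Neil1, 1.30 ± 0.35, adjusted p = 0.033 in Neil2 and 2.36 ± 0.35, adjusted p = 0.0016 in Apex1. The change of Cdh1 with retinoic acid was higher than in controls in Neil1 (0.90 ± 0.27, adjusted p = 0.033), a call lost without control clone #4 (0.75, adjusted p = 0.13). The same term in Neil2 was 0.76 ± 0.28, adjusted p = 0.11 without and adjusted p = 0.037 with the clone as a block, and in Apex1 it was 0.24 ± 0.22, adjusted p = 0.51. The Zeb2 change was lower than in controls in Neil1 (-1.31 ± 0.42, adjusted p = 0.041) and higher in Apex1 (1.00 ± 0.30, adjusted p = 0.050), a call that was lost with the Apex1 duplicates summed (adjusted p = 0.22). Twist2 was called in all 3 (log2 differences of the change, 2.48 ± 0.65, 3.01 ± 0.66 and 2.67 ± 0.57), from the handful of counts in mutant EBs given above.

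The balance of E- to N-cadherin was read within each library as the log2 ratio of Cdh1 to Cdh2 counts (0.5 added to each), which no scaling between libraries touches. In control cells it went from 5.49, 5.43 and 5.85 in mESCs to 1.26, 1.56 and 2.12 in EBs and -0.45, -0.80 and 0.48 in EBs + RA. The Neil1 ratios were 5.08, 4.81 and 5.47 in EBs and 5.43, 5.42 and 5.46 in EBs + RA, and those of Neil2 were 5.11, 5.66 and 5.01 and 3.77, 4.80 and 5.21. Neil1 EBs + RA thus lay beside the lowest control mESC library, and no Neil1 or Neil2 library of either EB stage fell to a control library of the same stage. Apex1 had 4.31 and 4.44 in mESCs, below all other mESC libraries, 4.55 and 4.09 in EBs and 2.06 and 1.85 in EBs + RA, between control and the Neil mutants. Cdh2 itself averaged 171 CPM in control, 8.94 in Neil1, 13.6 in Neil2 and 60.6 in Apex1 EBs + RA.

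**Figure D3:**
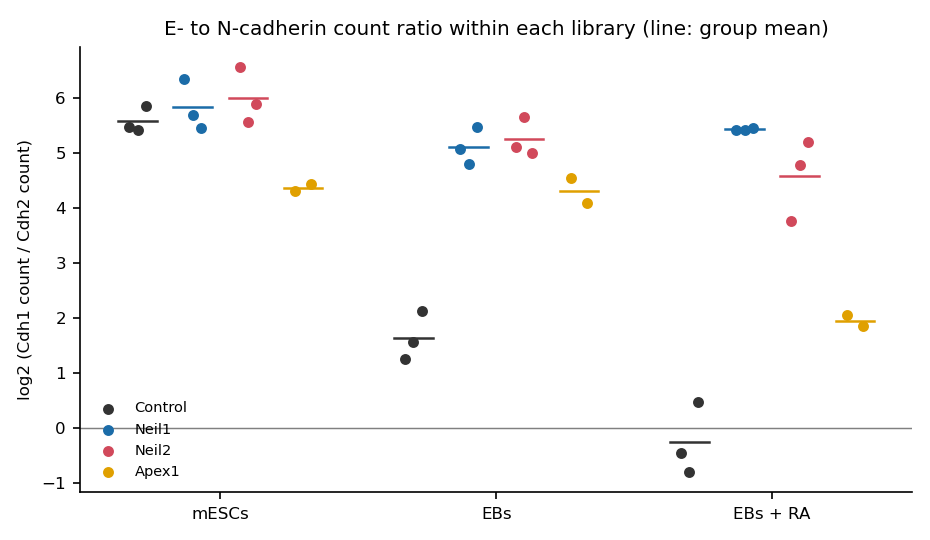
Log2 ratio of Cdh1 to Cdh2 counts within each library, by stage and genotype; points are libraries and lines are group means. Control libraries descend from above 5 in mESCs to near 0 in EBs + RA, while Neil1 and Neil2 libraries stay between 3.77 and 5.66 in both EB stages.

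The wider epithelial programme was read from 48 further genes of junctions, polarity, epithelial splicing and epithelial transcription, and 36 genes of mesenchyme. In mESCs edgeR called none of the 48 epithelial genes in Neil1 or Neil2, with 11 and 6 at an unadjusted p below 0.05. DESeq2 called 4 and 1 of the list, beside 999 and 811 over all genes. Without control clone #7 edgeR called 3 higher and 8 lower in Neil1 and 2 higher and 4 lower in Neil2. The all-gene shares for that fit and for the unadjusted p are not given here. Neither count is therefore read as a change of the list, since all-gene calls in mESCs also moved widely with 1 library left out. With all libraries, edgeR called 1.82% of all genes tested in mESCs in Neil1, 1.83% in Neil2 and 16.9% in Apex1. In Apex1 mESCs 6 rose and 5 fell, and no gene was called with the duplicates summed or without either duplicate. In EBs, 2 rose and 7 fell of 48 in Neil1 (median log2 fold change 0.01, all genes 0.00), 4 rose and 7 fell in Neil2 (0.11, all genes 0.02) and 3 rose and 14 fell in Apex1 (-0.25, all genes 0.00). The shares of all genes that rose and fell were 10.4% and 13.1% in Neil1, 8.65% and 7.69% in Neil2 and 11.9% and 13.9% in Apex1. Those that fell in both Neil mutants included Cd24a (-1.55 ± 0.17 in Neil1 and -1.89 ± 0.21 in Neil2) and the desmosome genes Dsc2 (-1.49 ± 0.14 and -1.64 ± 0.21) and Dsp (-1.33 ± 0.08 and -1.48 ± 0.18). Elf3, an epithelial ETS factor, was the only one that rose in both, from 64.6 ± 0.735 CPM in control EBs to 111 ± 5.28 in Neil1 and 109 ± 18.8 in Neil2. The number that rose was 5 in Neil1 without clone #11, 2 in Neil2 without control clone #7 or Neil2 clone #14 and 7 without Neil2 clone #11, and 1 in Apex1 without duplicate 1.

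In EBs + RA the epithelial list stood higher in the Neil mutants. Of 47 tested, 35 rose and 3 fell in Neil1 (median 1.14) and 23 rose and 3 fell in Neil2 (0.68), beside 8 and 4 in Apex1 (0.14), with all-gene medians of 0.00, 0.00 and -0.02. The shares of all genes that rose and fell were 21.2% and 19.9% in Neil1, 18.3% and 16.6% in Neil2 and 13.9% and 10.9% in Apex1. Ranked by the smaller of the Neil1 and Neil2 fold changes, as for the genes named below, those that rose in both began with the polarity gene Llgl2 (from 73.6 ± 25.9 CPM to 224 ± 29.2 in Neil1 and 211 ± 22.2 in Neil2), the desmosome gene Pkp3 (2.24 ± 0.31 and 1.5 ± 0.23), the membrane protease gene St14 (2.04 ± 0.16 and 1.43 ± 0.14) and the epithelial transcription factor gene Grhl3 (1.70 ± 0.30 and 1.40 ± 0.35). Those that fell in both were Cd24a, which neural progenitors also express (-2.73 ± 0.37 and -2.35 ± 0.23), Cxadr (-0.69 ± 0.17 and -0.63 ± 0.13) and the catenin gene Ctnnb1 (-0.67 ± 0.18 and -0.51 ± 0.14). In Apex1, 3 rose and none fell without duplicate 1, 5 rose and 2 fell without duplicate 2, and 4 rose and none fell with the duplicates summed.

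Most of the mesenchymal genes tested fell in Neil1 and Neil2 at both stages. In EBs none rose and 24 of 32 tested fell in Neil1 (median -2.22), none rose and 23 of 34 fell in Neil2 (-2.40), and 1 rose (none without duplicate 1) and 24 of 33 fell in Apex1 (-1.46). DESeq2 likewise called 0 higher in Neil1 and Neil2, edgeR called 1 higher in Neil1 without control clone #4 or Neil1 clone #9, and 26 genes in each had an unadjusted p below 0.05 in either direction. Those that fell in both Neil mutants began with Acta2 (smooth muscle actin, 41.4 ± 17.4 CPM in control EBs, 0.386 ± 0.117 in Neil1 and 0.359 ± 0.100 in Neil2), the growth factor gene Tgfb2 (-5.92 ± 0.32 and -6.39 ± 0.49) and the fibrillar collagen genes Col1a1 (-7.28 ± 0.35 and -5.79 ± 0.44) and Col3a1 (-5.03 ± 0.64 and -6.80 ± 0.82). In EBs + RA 25, 26 and 13 of 34 fell in Neil1, Neil2 and Apex1 and 2, 2 and 4 rose (medians -1.97, -1.66 and -0.47). All-gene shares were those given for the epithelial list. The number that rose in Neil1 was 1 without control clone #1 or #4 and 4 without control clone #7 or Neil1 clone #7. In Apex1 it was 2 without control clone #1 or #4, 7 without control clone #7, 0 without duplicate 1 or with the duplicates summed and 1 without duplicate 2. Sparc, a matrix glycoprotein gene and the highest of the list in these groups, averaged 3176 ± 2403 CPM in Neil1 and 1295 ± 698 in control EBs + RA and was not called (1.28 ± 0.56, adjusted p = 0.10). The library of Neil1 clone #11 summed to 6707 CPM over the list, above every control library. Of those that fell in both Neil mutants, the log2 fold changes in Neil1 and Neil2 began with Prrx1, a mesenchymal homeobox gene, with -5.36 ± 0.45 and -4.80 ± 0.36, Col3a1 with -5.37 ± 0.26 and -4.77 ± 0.38, Col1a1 with -5.39 ± 0.35 and -3.91 ± 0.47 and Cdh2 with -4.28 ± 0.30 and -3.65 ± 0.26. Col3a1 in Apex1 EBs + RA, at 95.8 ± 20.1 CPM, did not pass the test against 98.9 ± 5.57 in controls, and 5 of the list fell in Apex1 without duplicate 1 or with the duplicates summed. Gsc and Snai3 rose in both Neil mutants from low levels, Gsc from 0.275 ± 0.105 CPM to 1.34 ± 0.351 and 1.76 ± 0.627, and Snai3, a relative of Snai1, from 1.52 ± 0.512 CPM to 3.43 ± 1.16 and 4.53 ± 0.805.

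**Figure D4:**
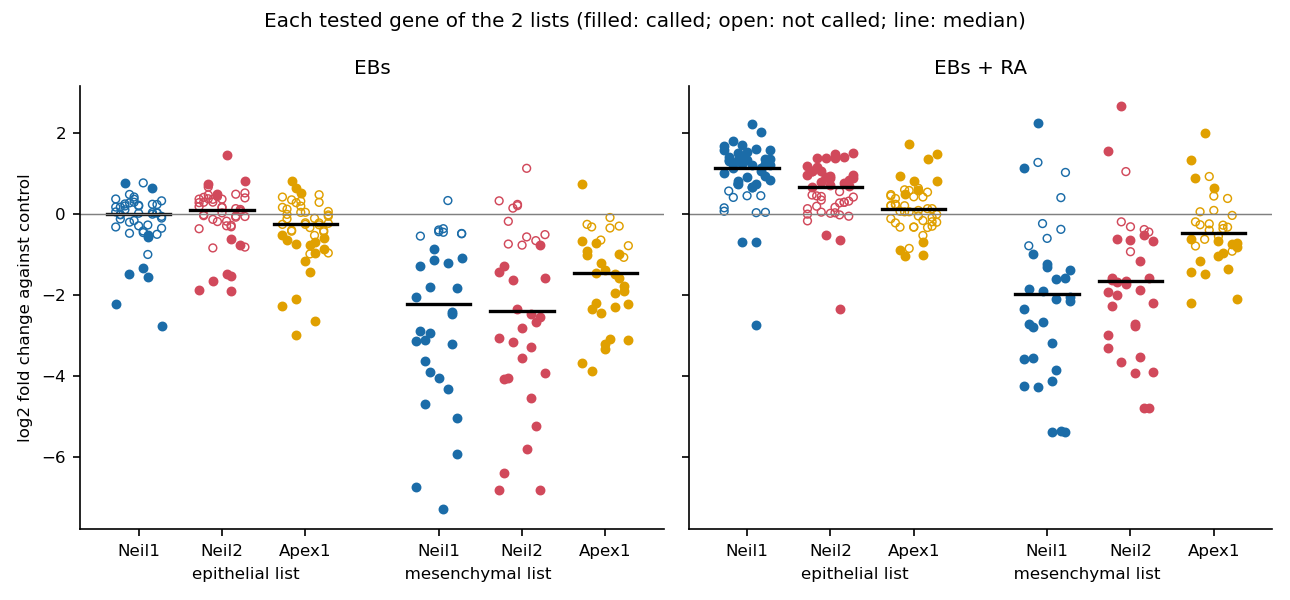
Log2 fold change against control of every tested gene of the epithelial and mesenchymal lists, in EBs (left) and EBs + RA (right), by genotype. Filled points were called, open points were not, and black lines are medians. The epithelial medians lie at 1.14 and 0.68 for Neil1 and Neil2 in EBs + RA and near 0 in EBs, and the mesenchymal medians lie below 0 in every group.

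Over the 33 libraries, the genes whose log2 CPM followed Cdh1 most closely, of 14193 genes averaging 1 CPM or more, were Znrf2 (Pearson r = 0.89), Erbb3 (Pearson r = 0.88), Ass1 (Pearson r = 0.87), Otud1 (Pearson r = 0.87) and Atp6v1c1 (0.87). Those closest to Zeb2 were 6330403K07Rik (0.94), Cdh11 (0.94), C530008M17Rik (0.94), Zfpm2 (0.93) and Pcdh18 (0.93). These describe libraries that share stages and genotypes, so no p is given.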

How the data were processed

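Per the labels, libraries were made from polyadenylated RNA with a kit that keeps no strand and read for 51 cycles. The authors aligned them to NCBIM37 (mm9) with TopHat2 2.0.9 and Bowtie2 2.1.0 and deposited raw HTSeq 0.5.4 counts per gene, with reads on several places or genes set aside. Counts were tested with edgeR 4.0.16 (quasi-likelihood, robust, trimmed mean of M values, filterByExpr), Benjamini-Hochberg adjusted over all genes, in place of the authors' DESeq2 1.6.3 at its adjusted p limit of 0.1 and log2 fold change limit of 0.5. Each mutant was fitted with control at 1 stage, and stages and interactions over both stages. DESeq2 1.42.0, DESeq2 size factors within edgeR, no filter, the replicate number or clone as a block, all genotypes in 1 fit, Apex1 duplicates summed and each library left out were alternatives. In stage and interaction fits, a clone or duplicate was left out at both stages together. Scripts were tested on simulated counts. Between genotypes, replicate numbers paired libraries only for Neil1 EBs + RA (r = 0.18, 0.21 and 0.14 between deviations). The labels pair stages by clone. Between EBs and EBs + RA each library correlated best with its own clone (r from 0.19 to 0.44). Between mESCs and EBs most did not (r from -0.41 to 0.17). The 10 genes and all lists were chosen with earlier results of these data known. From each list, up to 4 genes per direction were named by the smaller of both fold changes if called in both Neil mutants and averaging 1 CPM or more, as were the 5 genes most like Cdh1 and Zeb2, and 1 gene that this rule gave is not reported here. Replicates were clones, and intervals and floors cover counting error only. Total counts per library give the depth.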

Additional observations from a re-analysis of the deposited data

Results flagged for a closer look

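The mutant effect differed between stages, by an interaction term in edgeR's quasi-likelihood test adjusted over all genes, in 35 of 54 gene and genotype pairs. Between mESCs and EBs the log2 difference in Neil1 was 1.28 for Esrp1, -2.16 for Krt8, -1.96 for Krt18, -1.10 for Snai1, -2.45 for Zeb2, -2.65 for Twist1 and -4.97 for Twist2. In Neil2 it was 0.99 for Esrp1, -1.97 for Krt8, -1.85 for Krt18, -3.47 for Zeb2 and -2.60 for Twist1. In Apex1 it was 0.56 for Epcam, -4.49 for Krt8, -3.95 for Krt18, -2.37 for Snai1, -2.14 for Zeb2 and -3.45 for Twist2. In Neil1, Snai1 lost its call without control clone #1 (-1.11, adjusted p = 0.20), control clone #4 (-0.93, adjusted p = 0.33), Neil1 clone #7 (-1.06, adjusted p = 0.22) or Neil1 clone #9 (-0.75, adjusted p = 0.30), and Twist2 without control clone #4 (-4.60, adjusted p = 0.18), Neil1 clone #7 (-4.44, adjusted p = 0.29) or Neil1 clone #9 (-4.69, adjusted p = 0.27). Krt18 in Neil2 lost it without control clone #4 (-1.79, adjusted p = 0.10) or Neil2 clone #14 (-1.54, adjusted p = 0.15). In Apex1, the call was lost for Epcam without control clone #1 (0.46, adjusted p = 0.11), Apex1 duplicate 1 (0.62, adjusted p = 0.20) or Apex1 duplicate 2 (0.52, adjusted p = 0.23), for Zeb2 without Apex1 duplicate 1 (-1.90, adjusted p = 0.12) and for Twist2 without control clone #4 (-3.05, adjusted p = 0.17), Apex1 duplicate 1 (-2.38, adjusted p = 0.55) or Apex1 duplicate 2 (-4.39, adjusted p = 0.15).

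Between EBs and EBs + RA the log2 difference in Neil1 was 0.90 for Cdh1, 0.70 for Esrp1, 2.95 for Krt8, 2.72 for Krt18, 2.16 for Snai1, -1.31 for Zeb2, -1.23 for Twist1 and 2.48 for Twist2. In Neil2 it was 2.50 for Krt8, 2.09 for Krt18, 1.30 for Snai1 and 3.01 for Twist2. In Apex1 it was 3.36 for Krt8, 2.92 for Krt18, 2.36 for Snai1, 1.00 for Zeb2 and 2.67 for Twist2. In Neil1, Twist1 lost its call without Neil1 clone #7 (-1.21, adjusted p = 0.12), Neil1 clone #9 (-1.18, adjusted p = 0.14) or Neil1 clone #11 (-1.31, adjusted p = 0.11), and Zeb2 without control clone #1 (-1.31, adjusted p = 0.13), control clone #4 (-1.35, adjusted p = 0.12) or Neil1 clone #11 (-0.96, adjusted p = 0.11). Snai1 in Neil2 lost it without control clone #1 (1.11, adjusted p = 0.15), control clone #4 (1.16, adjusted p = 0.18) or Neil2 clone #14 (1.38, adjusted p = 0.11). In Apex1, Zeb2 lost it without control clone #1 (1.01, adjusted p = 0.15), control clone #4 (0.96, adjusted p = 0.13), Apex1 duplicate 1 (0.78, adjusted p = 0.36) or Apex1 duplicate 2 (1.29, adjusted p = 0.13), and Twist2 without Apex1 duplicate 1 (2.04, adjusted p = 0.24). The retinoic acid terms of the keratins and Snai1 thus lay above 0 in all 3 mutants. At this step the Krt8 and Krt18 calls held without any single control, Neil1 or Neil2 clone, left out at both stages together.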

How the results depend on the processing

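Of 1524 alternative values for single genes, 1391 kept their direction and side of the threshold, 74 lost the threshold, 34 passed it and 25 changed sign, each from a value that had not been called. In Neil1 mESCs, where 1 gene was called, DESeq2 and the fit of all genotypes each called 3 and the replicate block called 0. With Apex1 duplicates summed, 0 genes instead of 3 were called in mESCs and 3 instead of 5 in the retinoic acid interaction, and fewer samples were fitted there. With 1 library left out, 0 to 1 gene was called in Neil1 mESCs, 0 to 2 in Neil2 mESCs and 0 to 3 in Apex1 mESCs, and 3 to 7 and 3 to 6 in the Apex1 interactions for EBs and EBs + RA, and the cause was not tested. Under the replicate block, the Apex1 values in EBs + RA turned to 0.089 for Krt8 and 0.13 for Krt18. Where numbers pair the libraries or the labels name the same clone, the replicate block changed no call beyond those given in the report. Elsewhere samples share only a number (same-number r from -0.37 to 0.46), and the block took away Esrp1 in Neil1 mESCs and added Cdh1 and Twist1 in Apex1 EBs and Snai1 in Apex1 EBs + RA. In none of those comparisons did every sample correlate best with its own number.

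Leaving out 1 library, or in stage and interaction fits 1 clone or duplicate at both stages, turned the sign of these uncalled log2 differences. In mESCs, Snai1 ran from -0.37 to 0.18 in Neil1, Cdh1 from -0.068 to 0.13 and Krt8 from -0.045 to 0.26 in Neil2. In Apex1, Epcam in EBs ran from -0.051 to 0.083, and in EBs + RA Krt8 from -0.24 to 0.093 and Krt18 from -0.41 to 0.12. In controls, Cdh1 from mESCs to EBs ran from -0.040 to 0.064, and with retinoic acid Krt18 ran from -0.44 to 0.038, Snai1 from -0.31 to 0.22 and Twist2 from -0.13 to 0.27. Among interactions for EBs, Epcam ran from -0.27 to 0.057 in Neil1 and from -0.21 to 0.015 in Neil2, and for EBs + RA, Esrp1 ran from -0.019 to 0.21 and Twist1 from -0.66 to 0.11 in Neil2 and Twist1 from -0.065 to 0.59 in Apex1. Over all genes, 283 were called in Neil1 mESCs and 999 by DESeq2, 503 without the filter, 1290 with all genotypes in 1 fit, 0 with the replicate block and 0 to 2011 with 1 library left out. In Neil2 mESCs 286 were called, and 811 by DESeq2, 479 without the filter, 634 with the block and 1 to 1494 with 1 library left out. With Apex1 duplicates summed the calls went from 2751 to 0 in mESCs (6140 with the block), from 4026 to 1400 in EBs + RA, and from 4466 to 852 and 2646 to 662 in the interactions for EBs and EBs + RA. The clone block took the Neil2 interaction for EBs from 1677 to 982. With DESeq2 size factors the largest move of the median of all genes was -0.054 on the log2 scale, in the Neil1 interaction for EBs + RA. Depth limited Twist2 in mESCs and mutant EBs, and no level of Zeb1 was read.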
